A study of Mus musculus with 12 samples.

Results

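The thyroid hormone axis was followed in nuclei of mouse adipose tissue through 5 genes, Tshr, Dio2, Thra, Thrb and Thrsp. They were taken by symbol from the 32285 gene rows of the count matrices of all 12 libraries. In this axis, pituitary thyrotropin acts on the thyroid through its receptor, which adipocytes carry as well, and the thyroid releases mostly thyroxine, a prohormone. Deiodinases inside target cells convert thyroxine to the active hormone triiodothyronine, which binds nuclear receptors that sit on DNA with corepressors or coactivators. Brown adipocytes are known for raising this conversion when noradrenaline reaches them in the cold, as part of heat production by the uncoupling protein Ucp1.

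Single-nucleus RNA sequencing was available for 12 libraries of male C57BL/6J mice on normal chow, 1 library per group, so no difference below has a replicate. The labels abbreviate the depots as mPRAT and lPRAT, by common usage the medial and the lateral fat around the kidney, iBAT, the brown fat between the shoulder blades, and iWAT, the white fat of the groin. Room temperature (22 °C) was sampled at 1, 2 and 6 months for mPRAT and iBAT, at 2 and 6 months for lPRAT and at 6 months for iWAT, and mPRAT, iBAT and iWAT at 6 months were also profiled after 3 days at 4 °C. The series compared brown and white depots across ages and asked how each depot responds to cold. No group carries a transgene or deletion by its labels, and the number of animals behind a library is not given in them. The libraries titled 6 months carry an age of 16 weeks in their other labels, while 1 and 2 months are given as 4 and 8 weeks. Which libraries share animals or a preparation is not given either, so differences between animals, dissections or preparations cannot be told apart from depot, age or temperature.

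Of 119035 barcodes, 96643 were kept as nuclei, and 64692 of these fell in 9 of 36 clusters that were named adipocyte-like from their marker genes. Total UMIs, the counted unique molecules, were between 5461133 for the 2-month lPRAT library and 87035783 for cold iBAT, and kept nuclei had library medians of 874 to 6114 UMIs. Libraries shared at most 0.734% of the smaller library's barcodes. The limit of 10% mitochondrial UMIs removed 66.0% of the barcodes of cold mPRAT, 22.1% of mPRAT at 2 months and 21.4% of lPRAT at 2 months, and 7.42% or less elsewhere. In adipocyte-like nuclei the 7 adipocyte markers summed to between 6295 and 9291 CPM (UMI counts of a gene per 1000000 UMIs), and 5 markers of thyroid follicular cells summed to between 0.757 and 2.47 CPM. Among the marker lists of other cells, the highest sums in adipocyte-like nuclei were 355 CPM for Schwann markers in iWAT at room temperature, 241 CPM for adipose stem and progenitor cell (ASPC) markers in lPRAT at 2 months and 141 CPM for mast cell markers in iBAT at 6 months. Within pairs compared below, epithelial markers were 3.204 CPM in mPRAT at 6 months and 112 CPM in cold mPRAT, and B markers 69.9 and 7.19 CPM. Kidney tubule markers were 72.1 and 64.4 CPM in mPRAT at 1 and 2 months and 2.66 CPM at 6 months, and ASPC and macrophage markers of lPRAT were 241 and 91.9 CPM at 2 months and 26.6 and 13.3 CPM at 6 months. In iBAT, skeletal muscle markers were 112 CPM at 2 months and 6.03 CPM at 6 months. No marker of these lists was at 0 in all 12 libraries, and the part of such RNA in the levels below was not tested.

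All 5 genes are protein-coding in GENCODE release M21 on GRCm38. Tshr lies on the forward strand at chr12:91384563-91549808 and Dio2 on the reverse strand of the same chromosome at chr12:90724552-90738438. Thra lies at chr11:98740638-98769006 and Thrb at chr14:17660261-18038090, both on the forward strand, and Thrsp lies at chr7:97412938-97417730 on the reverse strand. The end of Thra shares 1075 bases with the reverse-strand gene Nr1d1, which encodes the clock repressor REV-ERB alpha, and the start of Dio2 shares 238 bases with the forward-strand noncoding gene Gm26512. Whether counting used the strand is not given in the sources used here, and the part of reads from the shared stretches in these levels was not tested. Because nuclei hold many unspliced transcripts, whose lengths differ between genes, levels were compared between libraries and classes and not between genes.

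The Dio2 promoter is shown because Dio2 moved with Ucp1 and with cold in the libraries described below, and cAMP, the second messenger of noradrenaline, is known to act through the 8-base cAMP response element. The 250 bases before the start that RefSeq gives for Dio2 lie at chr12:90739039-90739288 on the reverse strand of GRCm38.p6. That start, at base 90739038, is 600 bases upstream of the start in GENCODE. The element TGACGTCA is in capitals.

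Dio2 promoter: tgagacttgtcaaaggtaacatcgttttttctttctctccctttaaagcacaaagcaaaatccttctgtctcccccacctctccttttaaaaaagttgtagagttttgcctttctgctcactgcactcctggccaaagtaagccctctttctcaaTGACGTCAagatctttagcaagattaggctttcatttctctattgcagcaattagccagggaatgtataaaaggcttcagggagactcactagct

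The sequence held 1 copy of TGACGTCA, a palindrome and so the same on both strands, with its first base at position -95 counted from the RefSeq start. Searched the same way on both strands, 508 of 32851 promoter windows of this length (1.55%) held that element. The sequence held no copy of AGGTCA, the half-site of nuclear receptors, and none of CCAAT, which were found in 14.0% and 33.85% of all windows. Of the 5 genes, 3 had a window. The first of 2 Thrb windows held 1 AGGTCA and the Thrsp window 2 CCAAT, but these matches lie inside the genes as GENCODE places them, downstream of its starts. The window of Ucp1 held 1 AGGTCA at position -14 and no TGACGTCA. A match describes letters, not a bound site.

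**Figure D1:**
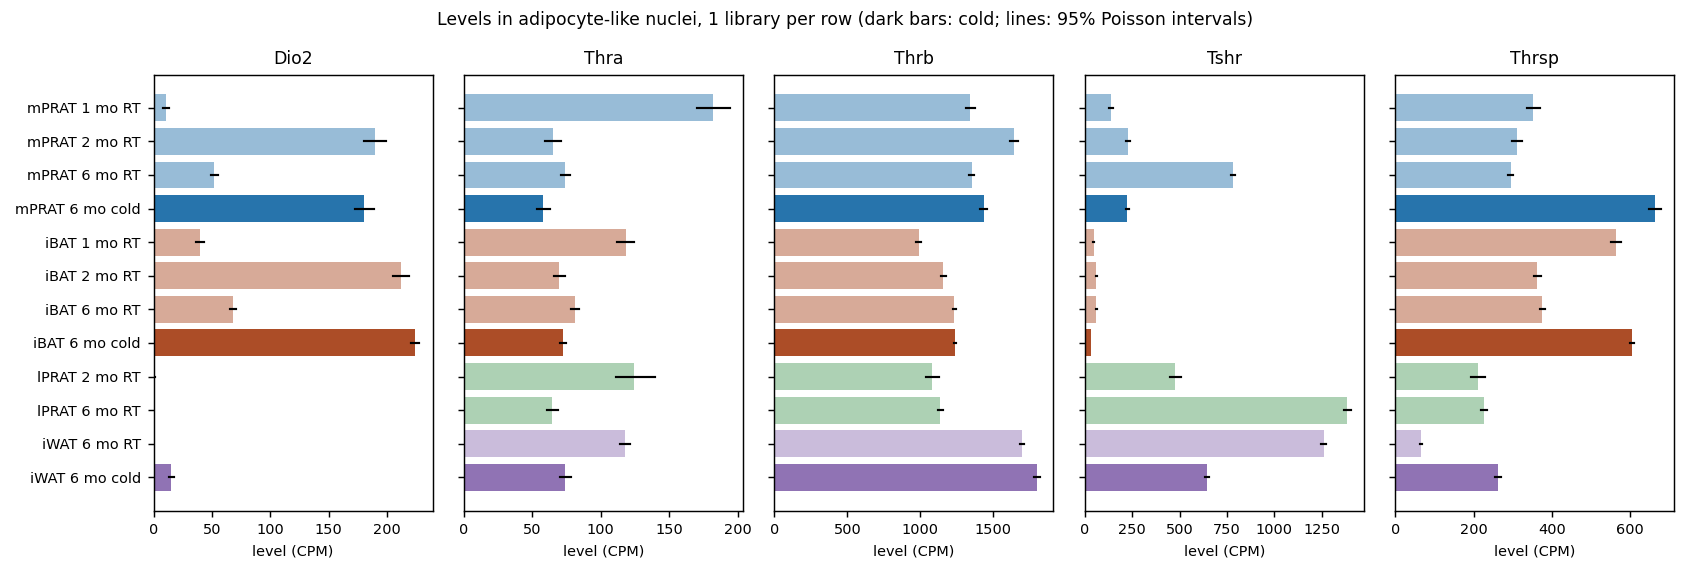
Levels of the 5 genes in adipocyte-like nuclei (horizontal axis, CPM from 0) for the 12 libraries (rows), with dark bars for cold and lines for exact 95% Poisson intervals, which cover counting error only. Dio2 is tall in 4 libraries of mPRAT and iBAT and close to 0 in lPRAT and in iWAT at room temperature. Tshr is tallest in lPRAT and iWAT at 6 months and lowest in the 4 iBAT libraries. Thrb varies least among the rows.

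Tshr encodes the thyrotropin receptor, a receptor coupled to cAMP. In adipocyte-like nuclei of mPRAT its level was 140 CPM at 1 month, 227 CPM at 2 months, 780 CPM at 6 months and 224 CPM after cold. In iBAT it was 46.0, 60.9 and 60.7 CPM at 1, 2 and 6 months and 33.3 CPM after cold. In lPRAT it was 477 CPM at 2 months and 1384 CPM at 6 months, and in iWAT 1260 CPM at room temperature and 645 CPM after cold. The 4 iBAT libraries thus held the 4 lowest levels, and lPRAT and iWAT at 6 months the highest. The highest level was 41.5 times the lowest, and 9 of 11 neighbours in the order of libraries had counting intervals that did not overlap. The exceptions were mPRAT at 2 months beside cold mPRAT and iBAT at 2 months beside iBAT at 6 months.

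With age, Tshr in mPRAT was 5.58-fold higher at 6 months than at 1 month (95% counting interval 5.17 to 6.03). Most of that step lay between 2 and 6 months, where the log2 ratio was 1.78 (1.71 to 1.85). In lPRAT the log2 ratio of 6 over 2 months was 1.54 (1.45 to 1.62), while in iBAT it was -0.00 (-0.11 to 0.10). In iBAT the log2 ratio of 6 over 1 month was 0.40 (0.27 to 0.54), and 1.94 once the macrophage-like level was subtracted, which left no value at 2 months. The subtracted levels rested on 3 counts in 80 nuclei at 1 month, 6 in 38 at 2 months and 3 in 224 at 6 months. With so few counts, the subtraction does not settle the iBAT course with age. After cold, Tshr was lower in all 3 depots, with log2 ratios of -1.80 in mPRAT (-1.86 to -1.74), -0.87 in iBAT (-0.95 to -0.78) and -0.97 in iWAT (-0.997 to -0.936). At 6 months and room temperature the level in iWAT was 20.8-fold that in iBAT (19.9 to 21.6), and that in mPRAT was 12.8-fold that in iBAT (12.3 to 13.4).

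Dio2 encodes the type II deiodinase, the enzyme that makes triiodothyronine inside the cell. In mPRAT its level was 10.4 CPM at 1 month, 190 CPM at 2 months, 51.8 CPM at 6 months and 180 CPM after cold. In iBAT it was 39.5, 212 and 67.8 CPM at 1, 2 and 6 months and 224 CPM after cold. In iWAT it was 0.320 CPM at room temperature, from 11 counts, and 15.3 CPM after cold, from 252 counts. In lPRAT, 5 counts at 6 months gave 0.328 CPM, and 0 counts at 2 months allow at most 1.24 CPM. The order of libraries therefore opened with cold iBAT, iBAT at 2 months, mPRAT at 2 months and cold mPRAT, and the last 2 of these had overlapping intervals. Cold iWAT and mPRAT at 1 month overlapped as well, as did the 3 lowest libraries.

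Dio2 was highest at the middle age in mPRAT and in iBAT. From 1 to 2 months its log2 ratio was 4.19 in mPRAT and 2.43 in iBAT, and from 2 to 6 months mPRAT had -1.87 (-1.98 to -1.76) and iBAT -1.65 (-1.72 to -1.57). Comparing 6 with 1 month alone gave 2.32 in mPRAT (1.92 to 2.75) and 0.78 in iBAT (0.64 to 0.92). Cold over room temperature at 6 months was 3.48-fold in mPRAT (3.24 to 3.74) and 3.31-fold in iBAT (3.17 to 3.44). In iWAT the cold level was 47.6-fold the level at room temperature (26.2 to 96.7), on the 11 counts of the latter. The size of this fold moved widely with the processing, over the range given in the section on processing below. The gene Gm26512, which overlaps the start of Dio2, had cold log2 ratios of -0.22, -0.89 and 1.35 in mPRAT, iBAT and iWAT. The levels of mPRAT and iBAT in the room-temperature libraries at 2 months, 190 and 212 CPM, were close in size to the cold levels of 180 and 224 CPM at 6 months.

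Between depots at 2 months, Dio2 was at least 153-fold lower in lPRAT than in mPRAT, taking the limit of 3 counts for lPRAT, or 125-fold lower at the near end of the 95% counting interval. At 6 months the level in lPRAT was lower than in mPRAT by a log2 ratio of -7.30 (-8.93 to -6.08), resting on 5 counts. In iWAT at room temperature the log2 ratio was -7.34 against mPRAT (-8.35 to -6.50) and -7.73 against iBAT (-8.73 to -6.88). After cold these gaps were smaller, at -3.56 against mPRAT (-3.76 to -3.37) and -3.88 against iBAT (-4.06 to -3.70). For iBAT over mPRAT the log2 ratio was 1.93 at 1 month (1.51 to 2.37). It lay between 0.16 and 0.39 at 2 months, at 6 months and in the cold.

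Thra and Thrb encode the nuclear receptors that triiodothyronine binds. Thra in mPRAT was 182 CPM at 1 month, 64.9 CPM at 2 months, 74.1 CPM at 6 months and 57.7 CPM after cold, and in iBAT 118, 69.5, 81.0 and 72.3 CPM in the same order. In lPRAT it was 124 CPM at 2 months and 64.7 CPM at 6 months, and in iWAT 117 CPM at room temperature and 74.1 CPM after cold. The highest level was 3.15 times the lowest, and 8 of 11 neighbours in the order overlapped. Both libraries at 1 month, lPRAT at 2 months and iWAT at room temperature formed the upper end.

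The Thra level at 6 months was lower than at 1 month by a log2 ratio of -1.30 in mPRAT (-1.41 to -1.18) and -0.54 in iBAT (-0.63 to -0.45). This was not particular to adipocyte-like nuclei. In mPRAT, ASPC-like nuclei had 211 CPM at 1 month (171 to 258) and 125 CPM at 6 months (109 to 143). Macrophage-like nuclei had 141 and 59.6 CPM, with overlapping intervals. Endothelial-like nuclei went the other way, at 80.5 and 87.4 CPM, also with overlapping intervals. After cold the log2 ratio in adipocyte-like nuclei was -0.36 in mPRAT (-0.50 to -0.23), -0.16 in iBAT (-0.23 to -0.10) and -0.66 in iWAT (-0.76 to -0.57). The iBAT value was 0.03 under TMM scaling, another way of matching libraries that moved log2 ratios by between -0.24 and 0.34 over the 21 pairs of libraries, and 0.32 once the level of macrophage-like nuclei was subtracted. That subtraction also turned the mPRAT value to 0.58, on 14 macrophage-like counts in the cold. It gave no value for iWAT, where Thra in the cold was higher in macrophage-like than in adipocyte-like nuclei. Over the libraries Thra was 36.0 to 141 CPM in macrophage-like and 57.7 to 182 CPM in adipocyte-like nuclei. The subtraction therefore cannot tell background from Thra expressed in macrophages. Thra is the gene that overlaps Nr1d1, whose own cold log2 ratios were -0.94, -1.18 and -1.63 in mPRAT, iBAT and iWAT. The part of shared reads in the Thra values was not tested.

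Thrb had the narrowest range of the 5 genes in fold terms among those with counts in every library. Its level in mPRAT was 1343, 1642 and 1351 CPM at 1, 2 and 6 months and 1434 CPM after cold, and in iBAT 988, 1158, 1232 and 1237 CPM in the same order. In lPRAT it was 1083 CPM at 2 months and 1136 CPM at 6 months, and in iWAT 1694 CPM at room temperature and 1801 CPM after cold. The highest level was 1.82 times the lowest. Cold over room temperature gave log2 ratios of 0.09 in mPRAT (0.06 to 0.11), 0.01 in iBAT (-0.01 to 0.02) and 0.09 in iWAT (0.07 to 0.11), and under TMM scaling these were -0.00, 0.20 and 0.21. The level in iWAT was above that in the other depots at room temperature and 6 months, by a log2 ratio of 0.33 over mPRAT (0.31 to 0.35) and 0.46 over iBAT (0.44 to 0.48).

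Thrsp encodes Spot 14, a lipogenic protein known for its response to thyroid hormone and carbohydrate. In mPRAT its level was 353, 311 and 294 CPM at 1, 2 and 6 months and 663 CPM after cold. In iBAT it was 564, 362 and 376 CPM at these ages and 604 CPM after cold. In lPRAT it was 210 CPM at 2 months and 226 CPM at 6 months, and in iWAT 64.7 CPM at room temperature and 262 CPM after cold. Cold mPRAT, cold iBAT and iBAT at 1 month were the upper end, and iWAT at room temperature stood below all others. After cold, Thrsp was 2.25-fold higher in mPRAT (2.18 to 2.33), 1.61-fold in iBAT (1.58 to 1.64) and 4.05-fold in iWAT (3.84 to 4.26). With age, from 1 to 6 months, mPRAT had a log2 ratio of -0.26 (-0.34 to -0.19) and iBAT one of -0.59 (-0.63 to -0.55).

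**Figure D2:**
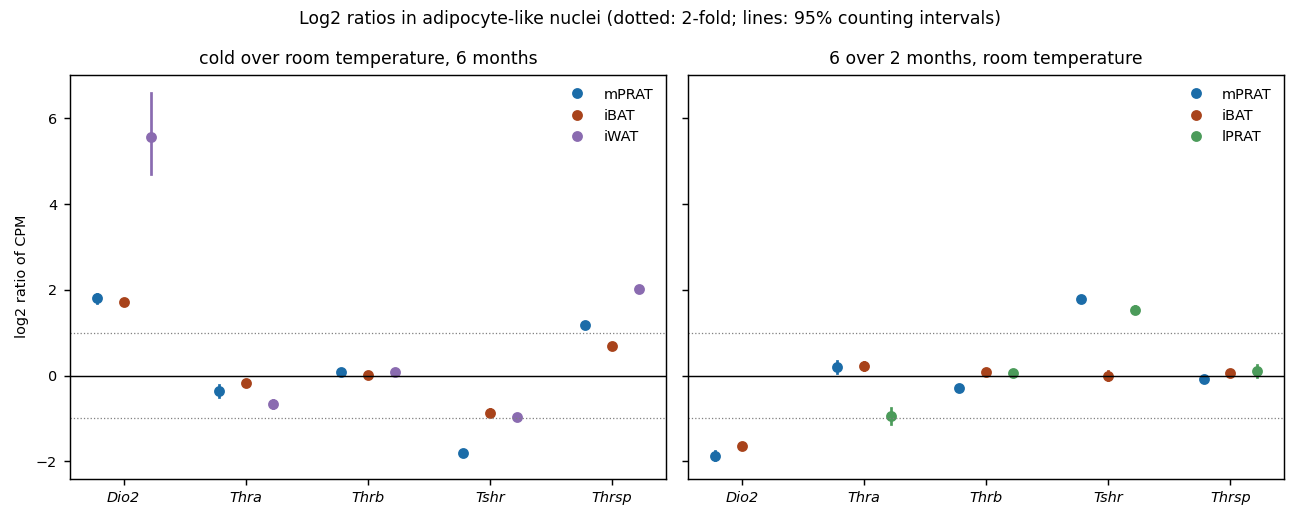
Log2 ratios of CPM in adipocyte-like nuclei (vertical axis) for each gene, cold over room temperature at 6 months at left and 6 over 2 months at room temperature at right, with lines for 95% counting intervals and dotted lines at a 2-fold difference. In the cold, Dio2 and Thrsp lie above 0 and Tshr below 0 in all 3 depots, and Thrb stays within 0.09 of 0. Dio2 has no point for lPRAT, where 5 and 0 counts give no ratio.

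A fold of 2 either way with at least 20 counts was used to count genes, beside the share of all genes with as many counts that passed it. In the cold, 3 of the 5 genes passed in mPRAT, Dio2, Tshr and Thrsp, where 23.8% of all genes did. In iBAT only Dio2 passed, where 28.4% of all genes did, and in iWAT Dio2 and Thrsp passed, where 18.6% did, with Tshr just inside the limit. Cold mPRAT is the library that lost most barcodes to the mitochondrial limit, and without that limit its log2 ratios were 1.79 for Dio2, -1.87 for Tshr and 1.14 for Thrsp. Over age, Dio2, Tshr and Thra passed between 1 and 6 months in mPRAT, against 20.8% of all genes, and 0 of 5 passed in iBAT, against 20.9%. In lPRAT from 2 to 6 months, 1 of 4 genes with enough counts passed, Tshr, against 26.6%.

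Between iBAT and mPRAT, Tshr passed in every pair, and Dio2 passed with it at 1 month only. The share of all genes past 2-fold was 16.4% at 1 month, 16.4% at 2 months, 21.7% at 6 months and 20.6% in the cold. For lPRAT against mPRAT, Dio2 and Tshr passed at 2 months, against 29.6% of all genes, and Dio2 alone at 6 months, against 23.1%. For iWAT against mPRAT, Dio2 and Thrsp passed at room temperature, against 23.1%, and Dio2, Tshr and Thrsp in the cold, against 34.4%. For iWAT against iBAT, Dio2, Tshr and Thrsp passed at room temperature, against 37.0%, and in the cold, against 44.9%. For lPRAT against iWAT, Thrsp alone passed of 4 genes with enough counts, against 19.5%, with 226 CPM in lPRAT and 64.7 CPM in iWAT. These comparisons share libraries and are not independent of each other. With 5 genes, a count of 1 or 2 lies near what those shares give.

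The cells behind these levels differed between libraries, since the libraries occupied different adipocyte-like clusters. Clusters 3 and 4 held 82.4% and 12.7% of adipocyte-like nuclei in lPRAT at 2 months, 12.7% and 86.7% in lPRAT at 6 months, 23.0% and 76.4% in iWAT at room temperature and 55.2% and 36.3% in cold iWAT. In mPRAT, cluster 5 held 59.5% at 2 months, clusters 3 and 1 held 35.0% and 29.6% at 6 months, and clusters 15 and 3 held 54.6% and 32.8% in the cold. In iBAT, cluster 0 held 75.2% at 1 month and 51.0% at 2 months, cluster 1 held 59.7% at 6 months and cluster 2 held 95.9% in the cold. Clusters 2 and 15 were nearly confined to 1 library each, with 95.8% of cluster 2 from cold iBAT and 94.9% of cluster 15 from cold mPRAT. The 5 genes and a list of 52 other pathway genes described below, Ucp1 among them, were left out of clustering. Some sex-linked genes and mitochondrial and ribosomal protein genes were left out as well. The remaining genes of these nuclei were available to it, so the values by cluster are a description.

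Within mPRAT at 6 months, Tshr and Dio2 were highest in different clusters. Tshr was 1684 CPM in cluster 4 (1650 to 1718) and 991 CPM in cluster 3 (970 to 1013), and 55.6 CPM in cluster 1 and 49.2 CPM in cluster 0. Dio2 was 2.26 CPM in cluster 4, from 13 counts, and 16.6 CPM in cluster 3, and it was 120 CPM in cluster 1 and 100 CPM in cluster 0. The 387 nuclei of cluster 5 held both genes, with 77.1 CPM of Dio2 and 192 CPM of Tshr. Ucp1 followed Dio2, with 551 CPM in cluster 1 and 3.99 CPM in cluster 4. In iBAT at 6 months, the 119 nuclei of cluster 4 had 1322 CPM of Tshr and 1 count of Dio2, beside 37.6 and 71.5 CPM in the 9133 nuclei of cluster 1. Thrb ranged only from 1113 to 1553 CPM over the 5 clusters of mPRAT at 6 months.

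Most of the Dio2 of cold iWAT sat in few nuclei. The 90 nuclei of cluster 1 had 333 CPM of Dio2 (277 to 396) with 647 CPM of Ucp1 and 31.9 CPM of Tshr. The 91 nuclei of cluster 5 had 130 CPM of Dio2 (96.5 to 170) with 249 CPM of Ucp1 and 203 CPM of Tshr. In cluster 3, with 1469 nuclei, Dio2 was 5.06 CPM, and in cluster 4, with 965 nuclei, it was 0.662 CPM from 5 counts. Clusters 1 and 5 thus supplied 125 and 51 of the 252 Dio2 counts.

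**Figure D3:**
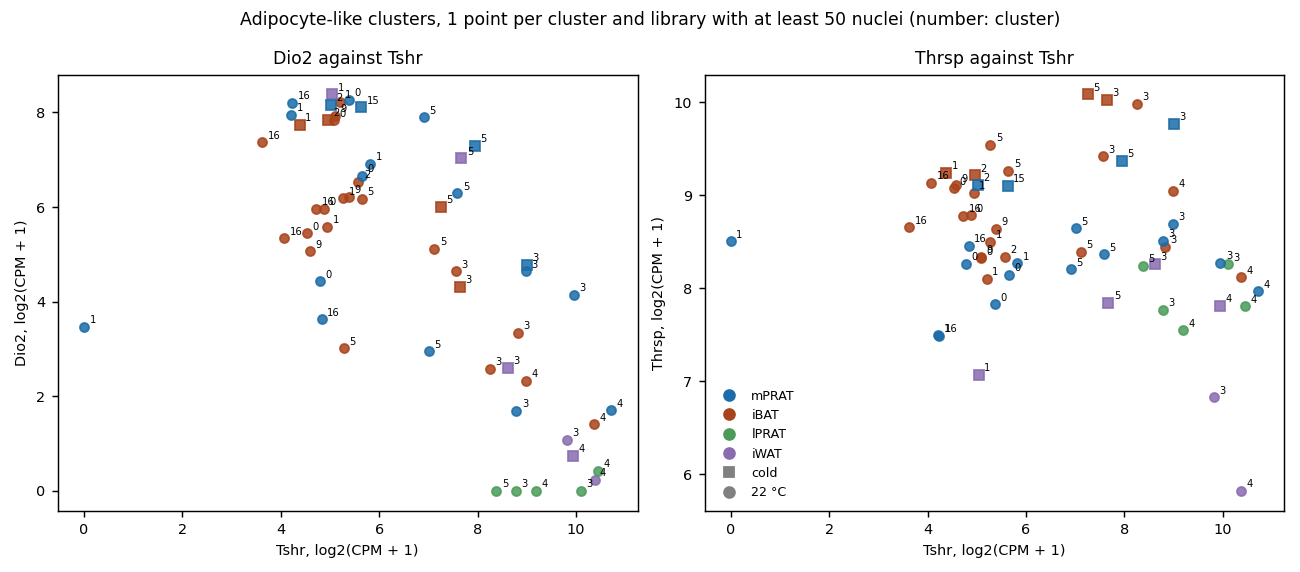
Dio2 (left) and Thrsp (right) against Tshr in each adipocyte-like cluster of each library with at least 50 nuclei, all on a log2(CPM + 1) scale, coloured by depot with squares for cold and the cluster number beside each point. Points of clusters 3 and 4 lie at high Tshr and low Dio2 in all depots, and cluster 1 of cold iWAT lies with the iBAT and mPRAT points at high Dio2.

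Differences held within 1 cluster were in part smaller than those over all adipocyte-like nuclei. Tshr in the cold had a log2 ratio of -0.96 in cluster 3 of mPRAT (-1.03 to -0.88), beside -1.80 over all adipocyte-like nuclei, and 0.36 in cluster 5 (0.01 to 0.70), which goes the other way on 85 counts in cold. In iWAT it was -1.20 in cluster 3 (-1.27 to -1.14) and -0.44 in cluster 4 (-0.48 to -0.41). In iBAT it was -0.92 in cluster 1 (-1.70 to -0.23) and -0.63 in cluster 2 (-1.15 to -0.06), with -1.18 in cluster 3 (-1.49 to -0.86) and 0.14 in cluster 5 (-0.43 to 0.75). Over age, Tshr of 6 over 2 months was 0.98 in cluster 3 of mPRAT (0.88 to 1.07), 0.69 in its cluster 5 (0.50 to 0.88), 0.28 in its cluster 0 (-0.37 to 0.93), 1.66 in its cluster 1 (0.42 to 3.29, on 5 counts at 2 months), 1.32 in cluster 3 of lPRAT (1.17 to 1.48) and 1.25 in cluster 4 of lPRAT (1.11 to 1.40). In iBAT, where the level over all adipocyte-like nuclei was alike at these ages, it was 1.38 in cluster 4 (1.17 to 1.59), 1.27 in cluster 3 and 1.50 in cluster 5, and -0.22 in cluster 0 (-0.50 to 0.05), 0.07 in cluster 1 and 0.30 in cluster 9.

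The Dio2 log2 ratio of 2 over 1 months was above 0 in each of the 11 clusters of mPRAT and iBAT with a value. Its log2 ratio in mPRAT was 3.91 in cluster 0 (3.36 to 4.50), 5.14 in cluster 5 (4.29 to 6.15) and 4.70 in cluster 16 (3.50 to 6.12). In iBAT it was 2.42 in cluster 0 (2.25 to 2.59), 2.67 in cluster 1 (2.36 to 3.00) and 2.91 in cluster 9 (2.32 to 3.56). In the cold, Dio2 was 1.57 in cluster 1 of iBAT (1.35 to 1.79), 1.31 in cluster 2 of iBAT (0.94 to 1.71), 1.02 in cluster 5 of mPRAT (0.55 to 1.47) and 0.67 in cluster 3 of mPRAT (0.28 to 1.06). It was 2.19 in cluster 3 of iWAT (0.94 to 3.71), on 41 and 6 counts, and 0.91 in cluster 5 of iBAT with an interval from -0.18 to 2.21.

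Thrsp in the cold was higher within every cluster compared. The log2 ratio was 1.50 in cluster 3 of mPRAT (1.42 to 1.57), 1.01 in cluster 5 of mPRAT (0.79 to 1.22), 0.74 in cluster 1 of iBAT (0.61 to 0.87), 1.44 in cluster 3 of iWAT (1.31 to 1.57) and 2.01 in cluster 4 of iWAT (1.91 to 2.11). Thra of 6 over 1 month in mPRAT was -1.27 in cluster 0 (-1.64 to -0.91), -1.04 in cluster 3 (-1.30 to -0.76) and -1.51 in cluster 5 (-1.81 to -1.22), close to its value over all adipocyte-like nuclei.

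Shares of nuclei with a UMI were compared at equal depth. Each nucleus was thinned to 1000 UMIs, which left out 9079 adipocyte-like nuclei in all and between 0 and 2920 per library. Tshr was found in 67.9% of thinned adipocyte-like nuclei of lPRAT at 6 months (65.7 to 70.0), 62.2% of iWAT at room temperature (60.7 to 63.7), 36.4% of cold iWAT (34.6 to 38.3) and 30.2% of mPRAT at 6 months (28.6 to 31.8). In iBAT it was found in between 2.76% and 4.05%. In macrophage-like nuclei, used as the background class, the Tshr share was between 0% and 7.57%. At 1 and 2 months the iBAT share lay under it. The macrophage-like shares there rested on 2 of 29 and 1 of 18 nuclei, so that comparison cannot tell Tshr from background. By level, iBAT adipocyte-like nuclei at both ages lay above ASPC-like, endothelial-like and mural-like nuclei, with intervals apart. Dendritic-like nuclei at 1 month and macrophage-like nuclei at 2 months lay higher, with overlapping intervals. Without thinning the Tshr shares ran from 3.55% to 93.0%, and the median UMIs were between 893 and 6669 in adipocyte-like and between 747 and 2079 in macrophage-like nuclei.

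Dio2 was found in 18.1% of thinned nuclei of cold iBAT (17.3 to 18.9), 16.4% of iBAT at 2 months (15.5 to 17.3), 15.1% of cold mPRAT (13.6 to 16.7) and 12.8% of mPRAT at 2 months (11.6 to 14.1). At 6 months and room temperature the Dio2 share was 5.42% in iBAT (5.04 to 5.82) and 4.46% in mPRAT (3.78 to 5.22). It was 3.45% in iBAT at 1 month, equal to that of macrophage-like nuclei there at 1 of 29 nuclei, and 0.878% in mPRAT at 1 month. No Dio2 UMI was found in the thinned lPRAT nuclei, 0 of 856 for 2 months and 0 of 1902 for 6 months, which at that depth allows shares of up to 0.350% and 0.158%, and without thinning 5 of 1939 nuclei at 6 months had one, 0.258%. In iWAT the Dio2 share was 0.0978% at room temperature (0.0267 to 0.250) and 1.90% in the cold (1.42 to 2.50), where macrophage-like nuclei had 0 of 383 and 0 of 225. Over all libraries the macrophage-like share was between 0% and 3.64%, and the adipocyte-like share was higher with intervals apart in 5 of 12. Without thinning the Dio2 shares ran from 0% to 57.7%.

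Thrb was found in between 57.7% and 79.2% of thinned adipocyte-like nuclei and between 18.0% and 43.6% of macrophage-like nuclei. For Thra these ranges were 6.16% to 16.3% and 0% to 13.6%, with the adipocyte-like share higher in 12 of 12 libraries and above the macrophage-like interval in 3. Thrsp was found in between 6.38% of iWAT at room temperature and 43.3% of cold iBAT, with 42.4% in cold mPRAT and 22.4% in cold iWAT, and in 0% to 14.6% of macrophage-like nuclei. Unthinned, the ranges in adipocyte-like nuclei were 57.0% to 98.1% for Thrb, 11.4% to 53.6% for Thra and 18.9% to 90.3% for Thrsp.

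Within a library, nuclei with a Ucp1 UMI were compared with those without one, in the 9 libraries with enough of both after thinning. The Dio2 share was higher with a Ucp1 UMI in 9 of 9 libraries, with intervals apart in 8. In mPRAT at 2 months it was 31.8% with Ucp1 (27.9 to 35.9) and 8.64% without (7.56 to 9.81), and in mPRAT at 6 months 12.7% (9.84 to 16.0) and 3.07% (2.46 to 3.77). In cold iWAT, 19 of the 74 nuclei with a Ucp1 UMI had one of Dio2, 25.7% (16.2 to 37.2), against 1.21% of the others (0.827 to 1.72). In cold iBAT the gap was smaller, with 19.0% (18.1 to 19.9) and 15.5% (14.1 to 17.0).

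The Tshr share was lower with a Ucp1 UMI in 9 of 9 libraries, with intervals apart in 6. In mPRAT at 6 months it was 6.44% with Ucp1 (4.42 to 9.02) and 34.2% without (32.4 to 36.0), in cold mPRAT 4.82% (3.51 to 6.43) and 22.9% (20.5 to 25.4), and in cold iWAT 5.41% (1.49 to 13.3) and 37.3% (35.4 to 39.2). In cold iBAT the Tshr shares were 2.66% (2.30 to 3.07) and 3.40% (2.72 to 4.18), with overlapping intervals. For Thrb the share was higher with Ucp1 in 3 libraries and lower in 6, with intervals apart in 1, for Thra lower in 6 with intervals apart in 1, and for Thrsp lower in 7 with intervals apart in 3. A nucleus that took up free RNA, or that is a doublet left after filtering, enters these shares, and the part of either was not tested.

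**Figure D4:**
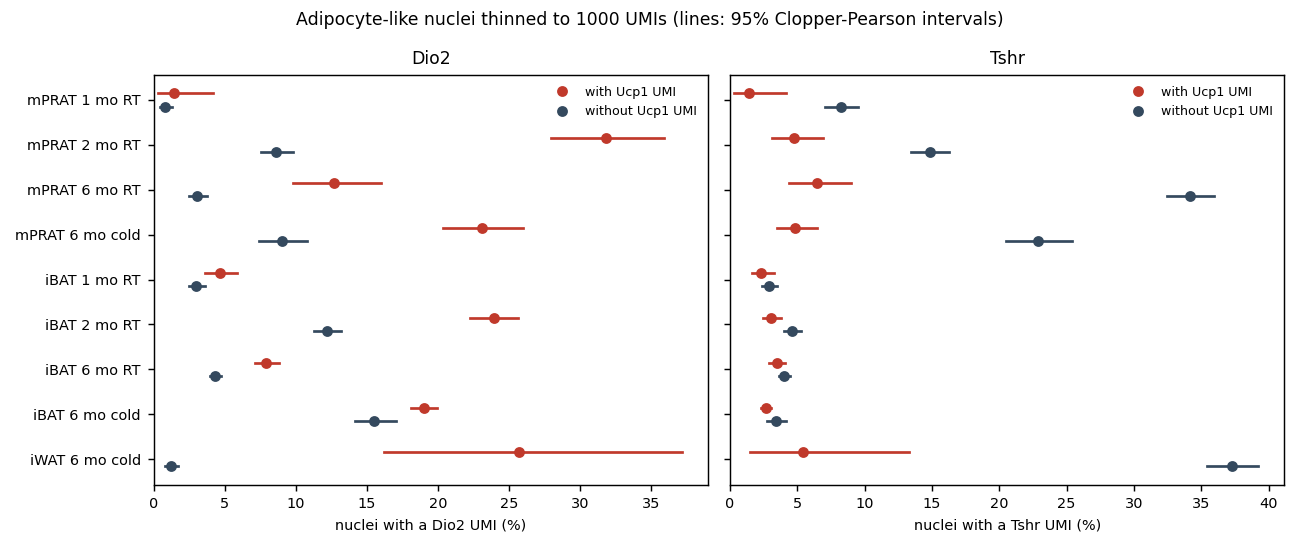
Share of adipocyte-like nuclei with a Dio2 UMI (left) or a Tshr UMI (right), in percent, for nuclei with and without a Ucp1 UMI in 9 libraries, each nucleus thinned to 1000 UMIs, with exact 95% Clopper-Pearson intervals that cover counting error only. The Dio2 share is higher and the Tshr share lower with Ucp1 in every library shown.

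Beyond adipocytes, the classes of nuclei ordered the genes differently. Thrb was higher in adipocyte-like than in ASPC-like, endothelial-like and macrophage-like nuclei in 12 of 12 libraries each, with intervals apart in all. Its level was 195 to 473 CPM in ASPC-like, 105 to 557 CPM in endothelial-like and 207 to 660 CPM in macrophage-like nuclei. Skeletal muscle-like nuclei, 505 in 3 iBAT libraries, had 2568 CPM at 1 month, 2098 CPM at 2 months and 897 CPM at 6 months, above the adipocyte-like level in the first 2, and kidney tubule-like nuclei of mPRAT had 773 and 980 CPM.

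Thra went the other way against progenitors: it was higher in ASPC-like than in adipocyte-like nuclei in 11 of 12 libraries, with intervals apart in 9. Its ASPC-like level was 95.1 to 211 CPM, and the exception was iWAT at room temperature, with 102 CPM in ASPC-like and 117 CPM in adipocyte-like nuclei. Mesothelial-like nuclei had more Thra than adipocyte-like nuclei in 5 of 6 libraries, with intervals apart in 2, at 81.8 to 158 CPM. Thra was lower in endothelial-like than in adipocyte-like nuclei in 8 of 12 libraries, with intervals apart in 3. It was higher in 4, with intervals apart in 1, iBAT at 6 months and room temperature.

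Tshr, Dio2 and Thrsp were highest in adipocyte-like nuclei in most libraries. Tshr was above ASPC-like nuclei in 12 of 12 libraries with intervals apart in all, at 1.88 to 75.6 CPM in ASPC-like nuclei. Dio2 was above ASPC-like nuclei in 11 of 12 libraries with intervals apart in 9, and it had 0 counts in 1791 mesothelial-like nuclei of 6 libraries. Dio2 was higher than in adipocyte-like nuclei in 1 library each for B-like, Schwann-like and T or NK-like nuclei, with intervals that overlapped, the B-like value being 248 CPM from 14 counts in 27 nuclei of cold iBAT. Tshr was higher in dendritic-like nuclei in 1 of 11 libraries and in macrophage-like nuclei in 1 of 12, with overlapping intervals. Thrsp was above ASPC-like and macrophage-like nuclei in 12 of 12 libraries each, at 10.4 to 133 CPM and 16.7 to 166 CPM.

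Low levels outside adipocytes differed between libraries too, in some cases with the sign of the adipocyte-like nuclei and in others not. In ASPC-like nuclei of iWAT, Tshr was 12.9 CPM in the cold and 75.6 CPM at room temperature, and Thrsp 37.9 and 10.4 CPM, both with the sign of the adipocyte-like nuclei. In endothelial-like nuclei of iBAT, Dio2 was 44.8 CPM in the cold and 10.8 CPM at room temperature, also with that sign. Against that sign, Tshr in macrophage-like nuclei of lPRAT was 80.9 CPM at 2 months (48.7 to 126) and 18.1 CPM at 6 months (13.9 to 23.2). In endothelial-like nuclei of mPRAT, Tshr was 60.7 CPM in the cold (31.4 to 106) and 33.8 CPM at room temperature (19.7 to 54.1). These rest on 12 and 17 counts with overlapping intervals, so no direction is shown there. The part of free adipocyte RNA in these levels was not tested.

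**Figure D5:**
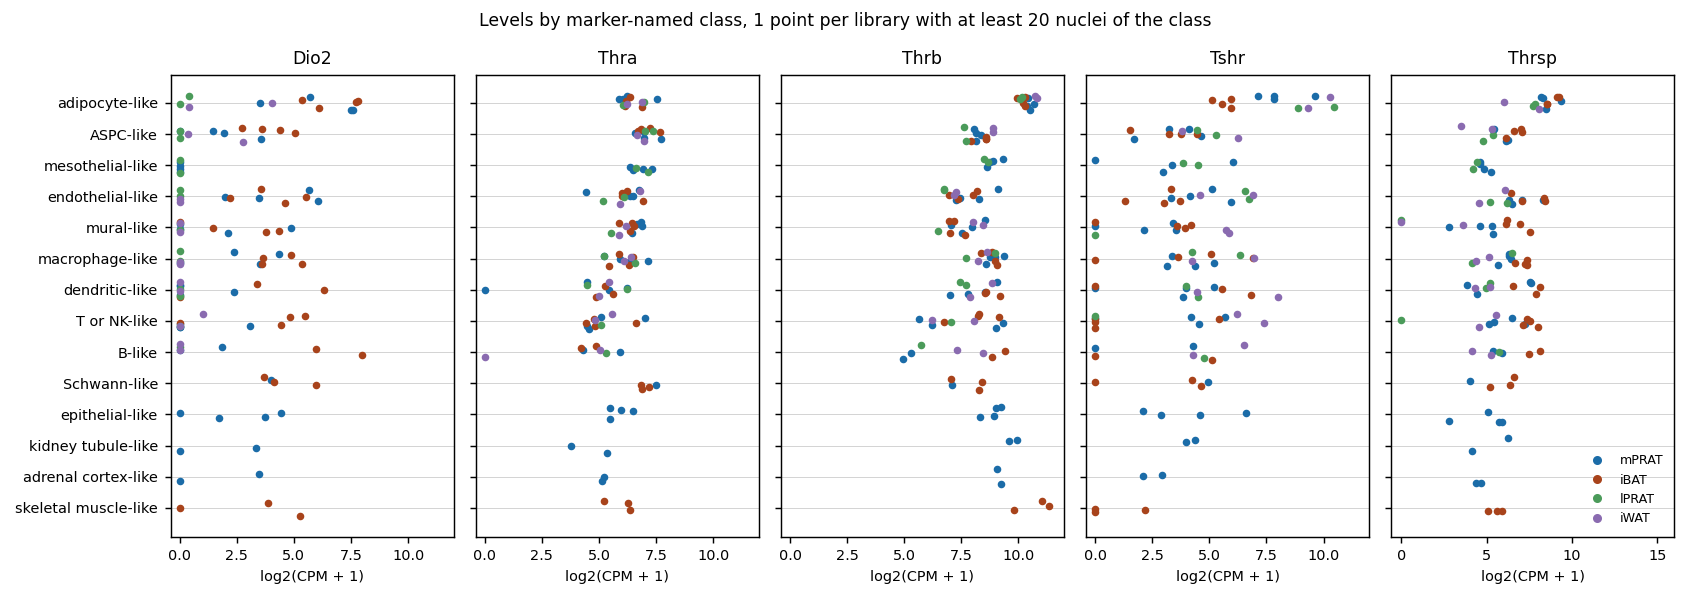
Levels of the 5 genes on a log2(CPM + 1) scale (horizontal axis) by marker-named class (rows), 1 point per library with at least 20 nuclei of the class, coloured by depot. Thrb is high in adipocyte-like, kidney tubule-like and skeletal muscle-like nuclei, Thra is near or above its adipocyte-like level in ASPC-like and mesothelial-like nuclei, and Tshr, Dio2 and Thrsp reach their highest adipocyte-like points well above nearly all others.

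Other genes of the pathway were taken from a list of 52, of which between 38 and 42 had at least 20 counts in a comparison. In the cold, 6 were at least 2-fold higher and 1 lower in mPRAT, 7 and 3 in iBAT and 6 and 3 in iWAT, with median log2 ratios of 0.11, 0.18 and 0.02 beside medians of -0.04, -0.12 and -0.22 over all genes. Over all genes, 10.8% were at least 2-fold higher and 13.1% lower in mPRAT, 10.5% and 18.0% in iBAT and 4.47% and 14.1% in iWAT, and either way the list had 7 of 41, 10 of 42 and 9 of 40 genes past 2-fold, of which the first and second are smaller shares than 23.8% and 28.4% of all genes. Of its 11 genes known to respond to thyroid hormone, 5 were higher and 1 lower in mPRAT, 3 and 1 in iBAT, and 5 and 1 of 10 in iWAT. The higher ones were Ucp1, Me1, Bcl3, Mid1ip1 and Fasn in mPRAT, and Ucp1, Me1 and Bcl3 in iBAT. Klf9 and Hr, also among the 11, did not pass 2-fold in mPRAT or iBAT. Some of these are named here outside the naming rule given below. Ucp1 was 733 CPM in cold mPRAT and 198 CPM at room temperature, 1470 and 438 CPM in iBAT, and 28.4 and 0.757 CPM in iWAT. Me1, the malic enzyme that supplies NADPH for lipid synthesis, had log2 ratios of 1.25, 1.50 and 3.01 in mPRAT, iBAT and iWAT. Fasn, the fatty acid synthase, had 2.99 in iWAT, from 19.9 to 158 CPM, and Gpd2, the mitochondrial glycerol phosphate dehydrogenase, had 1.68.

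Among the other named genes of the cold comparisons, Bcl3 had a log2 ratio of 1.51, Mid1ip1, a relative of Thrsp, 1.45 and the coactivator Ppargc1a 1.24 in mPRAT. In iBAT the transporter Slc7a8 had 1.58 and the calcium pump Atp2a1 -1.78 at 0.529 and 1.82 CPM. Atp2a1 in mPRAT had -1.32 with an interval from -3.31 to 0.23, and Tg in iBAT had 2.59 at 0.457 and 0.0757 CPM. Skeletal muscle markers in adipocyte-like nuclei were 2.06 CPM in the cold and 6.03 CPM at room temperature in iBAT. In mPRAT they were 2.78 and 10.8 CPM. The part of muscle RNA in the Atp2a1 values was not tested. In iWAT Slc7a8 had -2.49, opposite in sign to iBAT, and Nr1d1 -1.63. Among the 3 receptor partners and 6 receptor coactivators of the list, which holds Ppargc1a under the cAMP input to Dio2 instead, none passed 2-fold in any of the 3 cold comparisons, and 1 corepressor did, Tbl1xr1 in iWAT with 1.24, a gene named after its value was seen.

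Over age, 3 genes of the list were higher and 5 lower at 6 than at 1 month in mPRAT, 5 and 7 in iBAT, and 3 and 4 at 6 than at 2 months in lPRAT. Over all genes the share past 2-fold in these comparisons was 20.8%, 20.9% and 26.6%, so the counts of the list lay near it in mPRAT, above it in iBAT and under it in lPRAT. Slc7a8 had a log2 ratio of -2.00, Ppargc1a 1.59, Atp2a1 -1.44, the receptor partner Rxra -1.38 and Me1 1.34 in mPRAT. In iBAT Slc7a8 had -1.95, Acaca, the acetyl-CoA carboxylase, 1.65, Rxra -1.35, Atp2a1 -1.34 and Me1 1.31. Skeletal muscle markers in adipocyte-like nuclei were 32.4 CPM at 1 month and 6.03 CPM at 6 months in iBAT, and 12.8 and 10.8 CPM in mPRAT. Their part in the Atp2a1 values was not tested. In lPRAT Fasn had -2.05 (-2.22 to -1.88), Rxrg 1.41 (0.86 to 2.01) and Hr, a corepressor induced by thyroid hormone, 1.17 (0.73 to 1.64). Bcl3 had -1.86 (-2.83 to -0.83) at 1.71 CPM at 6 months and 6.18 CPM at 2 months. Mid1ip1 had -1.22 (-2.17 to -0.18) at 2.30 and 5.36 CPM, so the sizes of these 2 are loosely known.

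Between depots, more genes of the list passed 2-fold lower than higher in iWAT and lPRAT, the depots with little Dio2, and a link to Dio2 was not tested. Against mPRAT at 6 months, 1 gene was higher and 14 lower in iWAT at room temperature, with a list median of -0.35 beside -0.10 over all genes, and 2 were higher and 11 lower in lPRAT, with medians of -0.19 and -0.01. The share of all genes that were 2-fold lower was 13.9% in iWAT and 11.98% in lPRAT, where 41 genes of the list had enough counts in each. At 2 months, where lPRAT had 0 counts of Dio2, 4 of 39 genes were higher and 8 lower than in mPRAT, beside 15.7% and 13.9% of all genes. Of the 11 genes known to respond to thyroid hormone, 0 were higher and 9 lower in iWAT, and 1 and 8 in lPRAT at 6 months, but 2 and 3 of 10 in lPRAT at 2 months. Against iBAT at 6 months and room temperature, 4 of 42 genes of the list were higher and 15 lower in iWAT, beside 17.8% and 19.2% of all genes. In the cold the shares of lower genes lay closer to those of all genes. Against cold mPRAT, 1 of 39 genes was higher and 11 lower in iWAT, beside 10.2% and 24.2% of all genes. Against cold iBAT, 1 of 42 was higher and 13 lower, beside 17.9% and 27.0%. Slc16a10, which encodes the thyroid hormone transporter MCT10, was between 361 and 521 CPM in all 12 libraries. The other deiodinases were near absent: Dio1 had between 0 and 7 counts per library, with 0.576 CPM at 7 counts, and Dio3 had 1 count in cold iBAT and 0 in the other 11 libraries, which allows up to 1.24 CPM in the shallowest.

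Over the 12 libraries, the genes whose adipocyte-like levels were most like those of each member were found by Pearson's r of log2(CPM + 1) among 8441 genes with a mean of at least 10 CPM. For Dio2 they were Gk, the glycerol kinase (r = 0.970), Ucp1 (0.961) and Trib1 (0.961). For Tshr they were Lhfpl2 (0.988), Cpne2 (0.987) and Ppfibp1 (0.978), and for Thrsp Lpin1, a phosphatidate phosphatase (0.946), Sptbn5 (0.936) and Mcrip2 (0.934). Thra was most like Arl3 (0.863), Fech (0.841) and Ikbip (0.831), and Thrb most like Kat7 (0.921), Otud7b (0.893) and Arhgap32 (0.854). These lists depended on the measure. By Spearman's rho over the same libraries the first 3 for Dio2 were Patl1, Nrp1 and Rgs7. Only Ppfibp1 for Tshr and Kat7 for Thrb stayed among the first 3 of their gene. Among the members themselves, r was -0.69 for Dio2 with Tshr (Spearman's rho -0.63), 0.74 for Dio2 with Thrsp (0.76) and -0.73 for Tshr with Thrsp (-0.83). The 12 points come from 4 depots and share libraries and depth, so these values describe the set and carry no p-value.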

How the data were processed

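Nuclei were profiled with 10x 3′ single-nucleus RNA sequencing, per the labels' protocols. Per the submitters' processing notes the reads were processed with Cell Ranger 7.0.0 on mm10, and the deposited values are raw UMI counts per gene and barcode; whether introns and strand were used in counting is not given in the sources used here. The 5 genes, the marker lists and the pathway list were chosen with earlier results of these data known.

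Barcodes with at least 500 UMIs, 300 genes and at most 10% mitochondrial UMIs were kept. The scrublet threshold marked under 0.5% of nuclei in 4 libraries, so the highest doublet scores were removed at 0.8% per 1000 nuclei. Nuclei of all libraries were clustered with scanpy 1.11.5 on 2000 variable genes, using 30 components, 15 neighbours and Leiden resolution 1. The 5 genes, the pathway list, some sex-linked genes and mitochondrial and ribosomal protein genes were left out of the variable genes. A cluster was named where at least 3 markers reached 20 CPM and 2-fold. Counts were summed per library and class and divided by all UMIs of those nuclei, as CPM. With 1 library per group no test was made: ratios are given with exact intervals at 95% for 2 Poisson counts, and intervals and floors of 3 counts cover counting error only. Pathway genes were named by the 6 largest log2 ratios per comparison among those with at least 20 counts, and like genes by the 3 highest r. A few pathway genes that this rule names are not reported here. The scripts were tested on simulated data. Alternatives were TMM factors (edgeR 4.0.16), other filters, pseudocounts, depths and doublet settings, a mean over nuclei, all nuclei, and subtraction of the macrophage-like level. Promoter windows came from RefSeq on GRCm38.p6.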

Additional observations from a re-analysis of the deposited data

Results flagged for a closer look

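Between 2 and 6 months the log2 ratio had opposite signs in 2 depots, with neither counting interval reaching 0, for 3 genes, and none of these differences was tested, since each depot and age has 1 library. For Thra it was 0.19 in mPRAT and 0.22 in iBAT against -0.94 in lPRAT, where the level was 124 CPM at 2 months and 64.7 CPM at 6 months. After subtracting the macrophage-like level the lPRAT value was -0.13, and mPRAT and iBAT had no value. For Thrb it was -0.28 in mPRAT against 0.09 in iBAT and 0.07 in lPRAT, the last turning to -0.06 with nuclei of at least 1000 UMIs. For Thrsp it was -0.078 in mPRAT against 0.05 in iBAT, and the first turned sign under 4 of 11 other settings and the second under 1.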

How the results depend on the processing

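Of 103 ratios of the 5 genes with enough counts, 36 lay past 2-fold, and none of these changed sign under the other settings. The 3 values that came under 2-fold were Thrsp for iWAT over iBAT in the cold (just under after subtracting the macrophage-like level) and Tshr for lPRAT over mPRAT at 2 months (0.83 under TMM scaling, and after the subtraction). Among ratios under 2-fold, 29 values changed sign. Subtracting the macrophage-like level changed the count of genes past 2-fold from 0 to 1 for 6 over 1 month in iBAT (Tshr), from 1 to 2 for cold in iBAT, from 1 to 0 for iBAT over mPRAT at 2 months, where Tshr then had no value, and from 2 to 0 for lPRAT over mPRAT at 2 months, where Dio2 then had no value and Tshr was 0.94. It also gave 4 in place of 3 for iWAT over iBAT and 3 in place of 2 for iWAT over mPRAT at room temperature, both through Thra, and 2 in place of 3 for iWAT over iBAT in the cold. TMM scaling gave 2 in place of 1 for lPRAT over iWAT and 1 in place of 2 for lPRAT over mPRAT at 2 months. The mean over nuclei gave 1 in place of 2 for lPRAT over mPRAT at 2 months, where Dio2 then had no value, 2 in place of 1 at 6 months and 3 in place of 2 for cold in iWAT. Taking all kept nuclei gave 3 in place of 2 for iBAT over mPRAT at 1 month, iWAT over mPRAT at room temperature and lPRAT over mPRAT at 2 months. The causes were not tested. The cold ratio of Dio2 in iWAT lay between 1.29 (10 CPM added) and 6.11 (mean over nuclei). No paired analysis was possible because each group has 1 library.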

Other observations

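Adrb3, the adrenergic receptor of adipocytes, followed the depots in another order than Dio2. Its level in adipocyte-like nuclei was 806 and 1388 CPM in lPRAT at 2 and 6 months, where Dio2 had 0 and 5 counts. In mPRAT it was 298, 333 and 587 CPM at 1, 2 and 6 months and 455 CPM in the cold, and in iBAT 141, 257, 284 and 348 CPM. In iWAT it was 396 CPM at room temperature and 397 CPM in the cold. Adrb3 is 1 of 6 genes listed as cAMP input to Dio2. Of these, 1 was at least 2-fold higher and 2 lower in lPRAT than in mPRAT at 2 months. The lower ones were Ppargc1a, at 34.6 and 635 CPM, and Gnas, at 142 and 602 CPM. When the 9 libraries at room temperature were used alone, the genes most like Dio2 by r were Apmap, Adtrp and Opa3, those most like Tshr were Gca, Lhfpl2 and Dram1, and those most like Thrsp were Pde4dip, Stxbp2 and Atp5k, so that only Lhfpl2 of these 9 was also among the 3 genes found over 12 libraries. For Thrb, Kat7 came first both times.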
